A study of Mus musculus with 14 samples.

Results

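Anti-PD-L1 was compared with an isotype control antibody across 3 T cell populations sorted from the same kind of mouse tumour, and the genes described are those whose change had the same direction in all 3. All 14 of the 14 libraries of the series entered the comparison, 8 treated and 6 isotype. CD4 T cells gave 3 treated and 2 isotype libraries, PD-1- regulatory T cells (Tregs) 2 and 2, and PD-1+ Tregs 3 and 2. Every library came from C57BL/6 mice, stated in the labels to be female and 8 to 12 weeks old, of the genotype GATIR Foxp3Cre-rfp Gata3Cre-yfp, in which a red protein reports Foxp3. All carried a subcutaneous AE17-OVA tumour, a mouse mesothelioma that bears ovalbumin as a model antigen. They were given 200 µg of anti-PD-L1 (clone MIH5) or of isotype (clone 2A3) into the abdomen on day 10, and the tumours were collected on day 13. Cells were sorted by CD4, CD25, the Foxp3 reporter and PD-1, and sequenced as bulk Smart-seq2 libraries. The samples are bulk, so fewer cells of a type and less RNA per cell cannot be told apart, and only 1 tumour model and 1 time point were studied.

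PD-1 is an inhibitory receptor of activated T cells, and PD-L1 is the ligand through which tumour and myeloid cells engage it; both conventional CD4 T cells and tumour Tregs can carry PD-1. Interferon-gamma, made by type 1 helper and cytotoxic cells, binds the Ifngr1 chain of its receptor and acts with Ifngr2 through the kinases JAK1 and JAK2 to induce guanylate-binding proteins and related GTPases. Tregs of tumours are mostly of an effector type, which carries Icos and Tigit and has lost Ccr7, a lymph-node homing receptor of resting T cells.

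The libraries held 10638848 to 15030804 counts each. Levels are given as CPM, the counts per 1000000 of the scaled library. Against the female label, 3 of the 8 treated libraries held Y-linked counts: the summed level of 4 Y-linked genes was 204 CPM in 1 library of CD4 T cells, 267 in 1 of PD-1- Tregs and 260.4 in 1 of PD-1+ Tregs. The other 11 libraries had 0 or 1 Y-linked count. These 3 libraries carry the same number, 3, in the bracketed part of their titles, so the libraries may come from 5 numbered sources (2 isotype, 3 treated), each sorted into up to 3 populations. The animals or pools behind each library were not given in the sources used here. Libraries that share treatment and bracketed number are called a numbered source below, although the labels do not say what the number marks. In their deviations from group means, such libraries of different populations correlated at 0.002 to 0.035 (13 pairs). Libraries of the same treatment with unlike numbers correlated at -0.033 to 0.017 (20 pairs). P-values over 14 libraries measure the spread between libraries and would treat those of 1 source as independent. Results are given with and without the 3 libraries with Y-linked counts. The T cell markers Cd3e, Cd3d, Cd3g, Cd4 and Lck had counts in every library, and their sum ranged from 3473 to 5737 CPM. Cd4 itself stood at 19.7 CPM in 1 isotype PD-1- library, against 370 and 381 in isotype CD4 T cells. In isotype PD-1+ Tregs the T cell sum was 3858 to 4278 CPM, below that of 13 macrophage and monocyte markers (5193 to 7776).

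The genes of the sort and of the treatment were measured first. Cd4 (log2 fold change 0.67 ± 0.38), Foxp3 (0.67 ± 0.46), Il2ra, which encodes CD25 (0.58 ± 0.42), Cd274, which encodes PD-L1 (1.15 ± 1.06), and Pdcd1lg2, the second PD-1 ligand (-0.15 ± 1.76), were not past the threshold (edgeR quasi-likelihood test, Benjamini-Hochberg adjusted p of 1.0 for each). Of these, Il2ra had a difference of 2.27 for CD4 T cells, 0.16 for PD-1+ Tregs and -0.59 for PD-1- Tregs. Pdcd1, which encodes PD-1, did not pass either (1.10 ± 0.30, edgeR adjusted p = 0.411). Pdcd1 stood at 85.3 and 45.4 CPM in isotype and 196, 145 and 275 in treated CD4 T cells, at 39.9 and 21.7 against 45.7 and 46.5 in PD-1- Tregs, and at 115 and 85.6 against 227, 246 and 125 in PD-1+ Tregs. Its treated libraries lay above its isotype libraries in each population.

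Across the 3 populations, 9 of 13434 genes passed the threshold in 1 edgeR fit of population and treatment (0.067% of genes tested; adjusted p under 0.05). Of these, 8 rose (0.0596%) and 1 fell (0.00744%): the interferon-gamma receptor chain Ifngr1, the transcription regulator Id2, the surface protein Ly6a, the selectin ligand Selplg, the inhibitory receptor Tigit, the costimulatory receptor Icos, the lysosomal nuclease Pld3 and the chemokine Ccl5 rose, and the activation antigen Cd69 fell. All 9 changed in the same direction in all 3 populations, against 3404 of the 13434 genes tested (25.3%; 1647 higher, 12.3%, and 1757 lower, 13.1%). In all 9, the treated and isotype libraries did not overlap in any population, against 202 genes in all (1.5%; 84 higher, 0.625%, and 118 lower, 0.878%). The fit and these criteria read the same libraries, so the 9 of 9 counts are a description. At an unadjusted p under 0.05, there were 768 genes (5.72%), 324 higher (2.41%) and 444 lower (3.31%), of which 551 (71.7%) had the same direction in all 3. For none of the 9 did the effect differ between populations in the test of that difference (smallest edgeR adjusted p 0.121, Pld3), while Pld3 alone had an unadjusted p under 0.05 (0.00195). Over all genes, the effect differed between populations for 100 (0.744%), and for 1523 (11.3%) at an unadjusted p under 0.05.

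Promoters are shown because these genes changed in the same populations, and they were searched for 2 motifs of interferon and activation factors. RefSeq promoter sequences (GRCm38.p6) were held for 4 of the 9 genes, Ifngr1, Id2, Tigit and Pld3, and the 250 bases before 1 listed start site of each are printed 5′ to 3′ on the gene's strand, with capitals marking a motif match. Ly6a, Selplg, Icos, Ccl5 and Cd69 had no entry.
Ifngr1 (chr10:19591699-19591948, + strand): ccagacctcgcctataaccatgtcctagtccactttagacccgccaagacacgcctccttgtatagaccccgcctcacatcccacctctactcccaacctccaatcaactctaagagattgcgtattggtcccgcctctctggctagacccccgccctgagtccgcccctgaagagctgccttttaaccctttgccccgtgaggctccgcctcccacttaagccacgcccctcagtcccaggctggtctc
Id2 (chr12:25096093-25096342, - strand): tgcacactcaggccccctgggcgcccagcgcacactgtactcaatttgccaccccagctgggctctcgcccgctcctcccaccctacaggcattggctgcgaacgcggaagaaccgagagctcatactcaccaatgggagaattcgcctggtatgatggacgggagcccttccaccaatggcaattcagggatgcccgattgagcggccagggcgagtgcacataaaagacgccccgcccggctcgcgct
Tigit (chr16:43664185-43664434, - strand): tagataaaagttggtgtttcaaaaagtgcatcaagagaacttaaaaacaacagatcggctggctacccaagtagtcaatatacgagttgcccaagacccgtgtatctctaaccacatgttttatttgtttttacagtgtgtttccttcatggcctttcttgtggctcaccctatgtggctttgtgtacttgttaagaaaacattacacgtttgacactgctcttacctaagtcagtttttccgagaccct
Pld3 (chr7:27553219-27553468, - strand): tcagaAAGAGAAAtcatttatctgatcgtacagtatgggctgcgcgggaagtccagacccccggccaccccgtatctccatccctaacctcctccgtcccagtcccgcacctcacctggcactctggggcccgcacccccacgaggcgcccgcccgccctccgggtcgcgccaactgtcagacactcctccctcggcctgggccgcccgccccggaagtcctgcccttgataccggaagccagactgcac

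The motifs were searched on both strands: the core AANNGAAA of sites for interferon regulatory factors (IRF) and the AP-1 site TGANTCA. Pld3 held 1 match, of AANNGAAA, that begins 245 bases before its start. Ifngr1, Id2 and Tigit held no match to these letters in the window. The Tigit window lies inside the span of the gene (43626137 to 43665125), as the start site used is an internal one. Over the promoters of all tested genes, 16.6% held the IRF core and 4.6% the AP-1 site.

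Ifngr1, the receptor chain that binds interferon-gamma (NCBI gene 15979, chromosome 10, 19591949 to 19610229, GRCm38.p6), had the smallest p of all genes. Ifngr1 stood at 433 and 400.5 CPM in isotype and 1475, 1996 and 1840.3 in treated CD4 T cells, at 542 and 561 against 1836 and 2599.7 in PD-1- Tregs, and at 599 and 549 against 1970.5, 2007 and 2598 in PD-1+ Tregs. Every treated library lay above every isotype library of any population. Ifngr1 rose by 2.01 ± 0.12 on the log2 scale (edgeR adjusted p = 7.48e-07), with population values of 2.09 for CD4 T cells, 2.01 for PD-1- Tregs and 1.93 for PD-1+ Tregs that differ by less than their SEs. It kept this call in 34 of 34 alternative settings, with changes of 1.86 to 2.05, and it was the 1 gene of the 9 that passed in each of the fits that left out a population or a numbered source.

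The other genes of the interferon-gamma pathway differed less between the arms. Of 11 receptor and signalling genes, 9 were higher and 2 lower, with a median log2 difference of 0.43, against -0.03 over all genes tested and 48.3% of genes higher; Ifngr1 was the 1 member past the threshold and 2 members had an unadjusted p under 0.05. In all 3 populations 2 were higher and 1 lower, 27.3% of the list against 25.3% of all genes. The median was below 0 without PD-1+ Tregs (-0.0065). Of 21 interferon-gamma-induced genes, 18 were higher, with a median of 0.38, and 0 passed (5 at an unadjusted p under 0.05). In all 3 populations 5 were higher and 1 lower (28.6%), again near the share of all genes, and 15 were mixed. Igtp, an immunity-related GTPase, was the member without overlap in any population. Igtp stood at 416 and 413 CPM in isotype and 509, 496 and 479 in treated CD4 T cells, at 462 and 331 against 846 and 1080.2 in PD-1- Tregs, and at 416 and 254 against 563, 547 and 818 in PD-1+ Tregs. Its treated libraries were all above the isotype ones, by 0.79 ± 0.19 (edgeR adjusted p = 0.275). Gbp7 (0.81 ± 0.25) and Gbp2 (0.65 ± 0.24), guanylate-binding proteins, had the same direction in all 3 populations with overlap in some. Among 18 type I interferon-induced genes, 10 were higher and 8 lower (median 0.17; 6 higher and 2 lower in all 3), 0 passed and 1 had an unadjusted p under 0.05, the exonuclease Isg20 (0.76 ± 0.23).

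Id2, an inhibitor of E-protein transcription factors that supports effector T cells (NCBI gene 15902, chromosome 12, 25093799 to 25096092), rose by 1.47 ± 0.16 (edgeR adjusted p = 0.000834). Id2 stood at 341 and 287 CPM in isotype and 911, 1126 and 1047 in treated CD4 T cells, at 96.7 and 143 against 254 and 415 in PD-1- Tregs, and at 250.2 and 259.9 against 639.6, 634 and 537 in PD-1+ Tregs. Each population kept its own level and every treated library was above the isotype libraries of its population. Ly6a, a lipid-anchored surface protein known as Sca-1 (NCBI gene 110454, chromosome 15, 74994877 to 74998031), rose by 1.52 ± 0.17 (edgeR adjusted p = 0.000969). Ly6a stood at 191 and 183 CPM in isotype and 376, 393 and 572 in treated CD4 T cells, at 145 and 149 against 437 and 516 in PD-1- Tregs, and at 91.4 and 156 against 392, 394 and 369 in PD-1+ Tregs. The treated libraries of all populations were above every isotype library of any population. Ly6a has close paralogs, so its reads may be shared with them.

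Selplg encodes PSGL-1, the ligand of the selectins and an attachment molecule of activated T cells (NCBI gene 20345, chromosome 5, 113817798 to 113832528), and rose by 1.12 ± 0.14 (edgeR adjusted p = 0.00247). Selplg stood at 749 and 742 CPM in isotype and 1381, 1351 and 1242 in treated CD4 T cells, at 478 and 681 against 1402 and 1247 in PD-1- Tregs, and at 282 and 371 against 789.7, 1010.05 and 695 in PD-1+ Tregs. The 2 isotype CD4 libraries, the highest of the isotype libraries, were above 1 treated PD-1+ library, but within each population the arms did not overlap. Tigit, an inhibitory receptor for the poliovirus receptor on myeloid and tumour cells (NCBI gene 100043314, chromosome 16, 43626137 to 43665125), rose by 1.70 ± 0.21 (edgeR adjusted p = 0.00247). Tigit stood at 85.2 and 81.4 CPM in isotype and 269, 241 and 405 in treated CD4 T cells, at 30.6 and 52.0 against 155 and 209 in PD-1- Tregs, and at 311 and 339 against 821, 603 and 781 in PD-1+ Tregs. The log2 change was largest in PD-1- Tregs, 2.14, and least in PD-1+ Tregs, 1.18, where the isotype level was highest, and this difference was not past the threshold (edgeR adjusted p = 0.542). Id2, Ly6a, Selplg and Tigit kept their calls when any 1 library, or the 3 libraries with Y-linked counts, were left out. All 4 lost them without CD4 T cells (edgeR adjusted p 0.106 to 0.377), without PD-1+ Tregs (0.0968 to 0.165) and without either isotype source (0.0720 to 0.173). Selplg also lost its call without treated source 2 (0.0561), and Tigit in 2 limma-voom fits (limma adjusted p 0.0788 and 0.0550).

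Icos, the CD28-family costimulatory receptor (NCBI gene 54167, chromosome 1, 60960773 to 61000322), rose by 1.25 ± 0.18 (edgeR adjusted p = 0.00935). Icos stood at 161 and 156 CPM in isotype and 328, 425 and 412 in treated CD4 T cells, at 256 and 234 against 759.9 and 328 in PD-1- Tregs, and at 244 and 209 against 559, 492 and 616 in PD-1+ Tregs. PD-1- Tregs spread widest, with 1 treated library near the top and 1 close above the isotype libraries. The call was lost without isotype CD4 replicate 2 (edgeR adjusted p = 0.0607) and without isotype PD-1+ replicate 2 (0.0524), and kept without the 3 libraries with Y-linked counts. It was also lost without CD4 T cells (0.879), PD-1+ Tregs (0.522), either isotype source (0.337 and 0.785) and either other treated source (0.0550 and 0.177), and by limma-voom, so that 12 of 34 alternatives ended it.

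Pld3, a lysosomal exonuclease of nucleic acids (NCBI gene 18807, chromosome 7, 27531367 to 27553229), rose by 2.00 ± 0.33 (edgeR adjusted p = 0.0452). Pld3 stood at 152 and 123 CPM in isotype and 275, 204 and 289 in treated CD4 T cells, at 23.1 and 40.9 against 247 and 322 in PD-1- Tregs, and at 43.1 and 47.6 against 179.8, 199 and 258 in PD-1+ Tregs. The change was 3.15 for PD-1- Tregs, 2.23 for PD-1+ Tregs and 0.90 for CD4 T cells, whose isotype level was higher. Ccl5, a chemokine made by activated T cells (NCBI gene 20304, chromosome 11, 83525778 to 83530518), rose by 1.79 ± 0.30 (edgeR adjusted p = 0.0461). Ccl5 stood at 63.1 and 81.4 CPM in isotype and 306, 275 and 577 in treated CD4 T cells, at 20.2 and 28.1 against 130.1 and 50.5 in PD-1- Tregs, and at 169 and 127 against 337, 251 and 374 in PD-1+ Tregs. Treated libraries were above isotype ones in each population, by the least in PD-1+ Tregs, where the change was 1.12. Both calls sit near the threshold. Leaving out 1 library ended the Pld3 call for 12 of 14 libraries (all but isotype CD4 replicate 1 and treated CD4 replicate 2; edgeR adjusted p 0.0521 to 0.157) and the Ccl5 call for 13 of 14 (all but treated PD-1- replicate 2; 0.0515 to 0.243). Without the 3 libraries with Y-linked counts, edgeR adjusted p was 0.27 for Pld3 and 0.0874 for Ccl5. Leaving out any population or any numbered source also ended both calls. Of 34 alternatives, 24 ended the Pld3 call and 25 the Ccl5 call.

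Cd69, an early activation antigen that also holds cells in tissue (NCBI gene 12515, chromosome 6, 129267324 to 129275375), was the 1 gene that fell, by 0.96 ± 0.16 on the log2 scale (edgeR adjusted p = 0.0389). Cd69 stood at 481 and 705 CPM in isotype and 299, 309 and 350.5 in treated CD4 T cells, at 723 and 955 against 593 and 371 in PD-1- Tregs, and at 435 and 639 against 208, 254 and 253 in PD-1+ Tregs. The treated libraries were below the isotype ones in each population, with PD-1+ Tregs lowest under treatment. This call was lost without any 1 of 11 of 14 libraries (all but isotype CD4 replicate 1, isotype PD-1- replicate 1 and treated PD-1- replicate 1; edgeR adjusted p 0.0567 to 0.187), and without the 3 libraries with Y-linked counts (0.281). It was lost as well without CD4 T cells (0.917), PD-1+ Tregs (0.801) and any numbered source, and 23 of 34 alternatives ended it. Among 14 genes induced by the T cell receptor, the list that holds Cd69, 6 were higher and 8 lower (median -0.32; 1 higher and 4 lower in all 3 populations), and Cd69 was the 1 past the threshold.

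**Figure D1:**
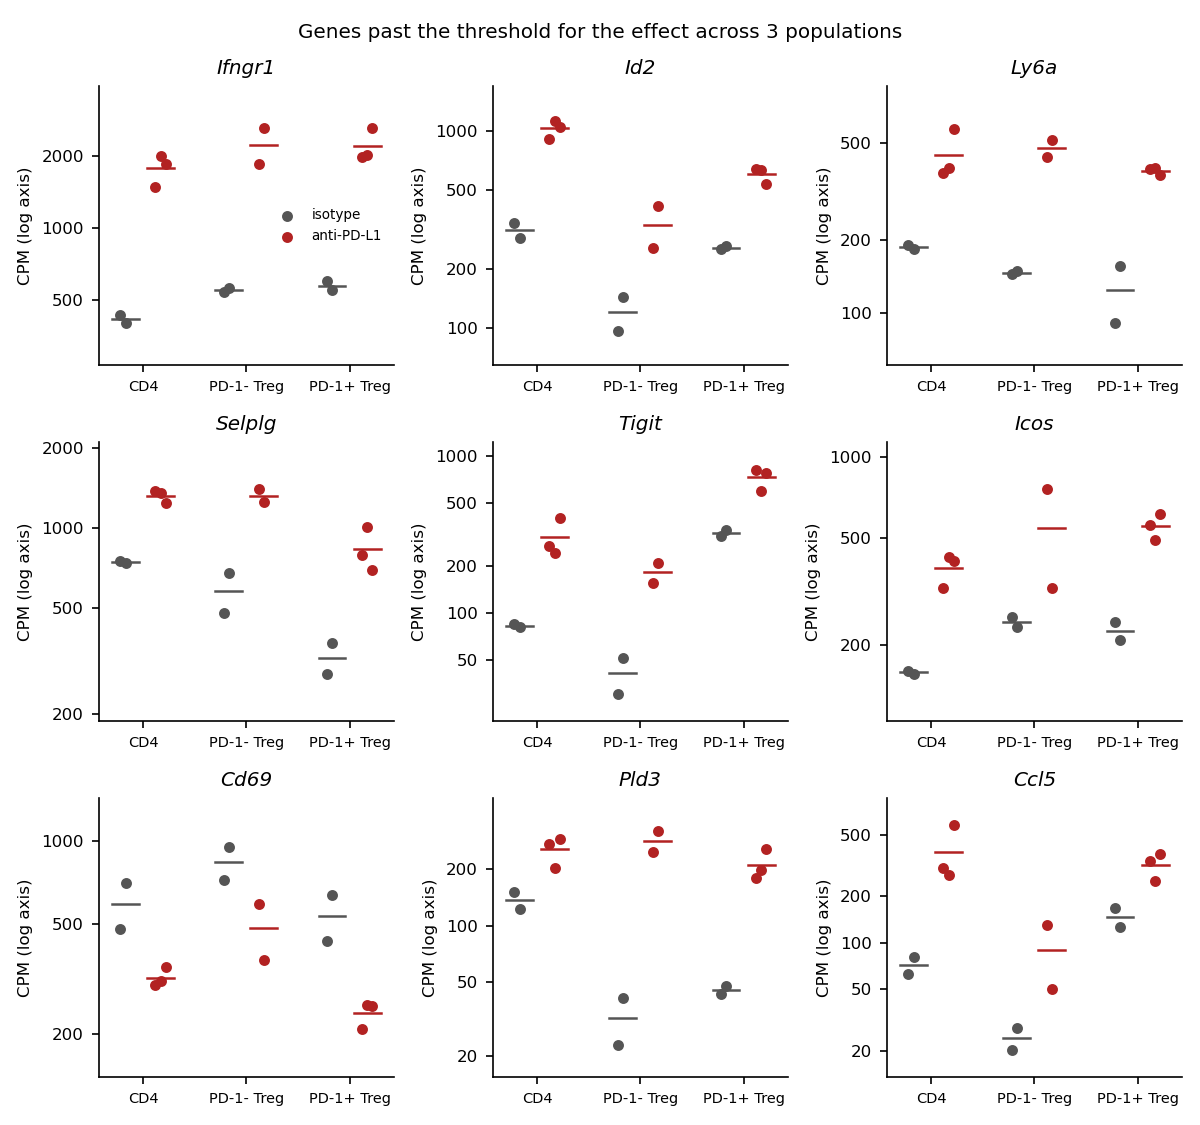
CPM on a log axis of the 9 genes past the threshold, by population; each point is 1 library, grey isotype and red anti-PD-L1, and lines mark the mean of an arm. In each panel the red points lie above the grey ones in every population, except for Cd69, where they lie below.

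The treatment labels were also permuted within populations (600 assignments) on the mean difference of log2(CPM + 1). All 9 genes reached 0.00167, the smallest two-sided exact p that those assignments allow. Where the arms do not overlap, the true labels already give the largest difference in their direction. This p therefore adds no support beyond the lack of overlap. Il2rb and Arl6ip1, which were not past the threshold, gave the same p. Over the 5 numbered sources instead (10 assignments), all 9 gave an exact p of 0.1, again the smallest possible, so this design cannot reach 0.05 at that level.

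Beyond the 9 genes, 15 further genes were picked by the rule of no overlap in any population and 10 CPM or more on average in each population's higher arm, taking the smallest p. Il2rb, the shared chain of the IL-2 and IL-15 receptors, had the smallest p of the 4 higher ones. Il2rb stood at 93.7 and 70.2 CPM in isotype and 278, 129 and 274 in treated CD4 T cells, at 133 and 187 against 405 and 369 in PD-1- Tregs, and at 75.3 and 129 against 201, 232 and 180.2 in PD-1+ Tregs. Its treated libraries were above the isotype libraries in every population, by 1.24 ± 0.23, and it just missed the threshold (edgeR adjusted p = 0.0719). Nr3c1, the glucocorticoid receptor, differed by 1.65 ± 0.34 (edgeR adjusted p = 0.168), Rnf125, a ubiquitin ligase, by 1.61 ± 0.35 (0.196) and Arl6ip1, a protein that shapes the endoplasmic reticulum, by 0.56 ± 0.10 (0.0723).

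Of the 11 lower genes of that set, 5 encode ribosomal proteins, among them Rpl35, Rps14 and Rps24. The other 6 were Rgs10, a brake on G-protein signalling (-1.12 ± 0.20, edgeR adjusted p = 0.0719), the nucleoside diphosphate kinase Nme1 (-0.71 ± 0.14, 0.126), the nucleosome-binding protein Hmgn1 (-1.04 ± 0.23, 0.21), nucleophosmin, Npm1, a factor of ribosome assembly (-0.91 ± 0.20, 0.21), Znrf3, a ubiquitin ligase of Wnt receptors (-1.26 ± 0.28, 0.21), and Hspe1, a mitochondrial chaperonin (-1.23 ± 0.29, 0.272). Rgs10 stood at 181 and 230.4 CPM in isotype and 144, 119.95 and 119 in treated CD4 T cells, at 366 and 399.8 against 133 and 98.9 in PD-1- Tregs, and at 358 and 338 against 184, 121 and 206 in PD-1+ Tregs. Rgs10 was lower in every treated library than in every isotype library of its population, with the widest gap in PD-1- Tregs. Among the 7870 genes with at least 10 CPM in an arm of each population, 2497 (31.7%) had the same direction in all 3, and 190 (2.41%) did not overlap in any of them.

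**Figure D2:**
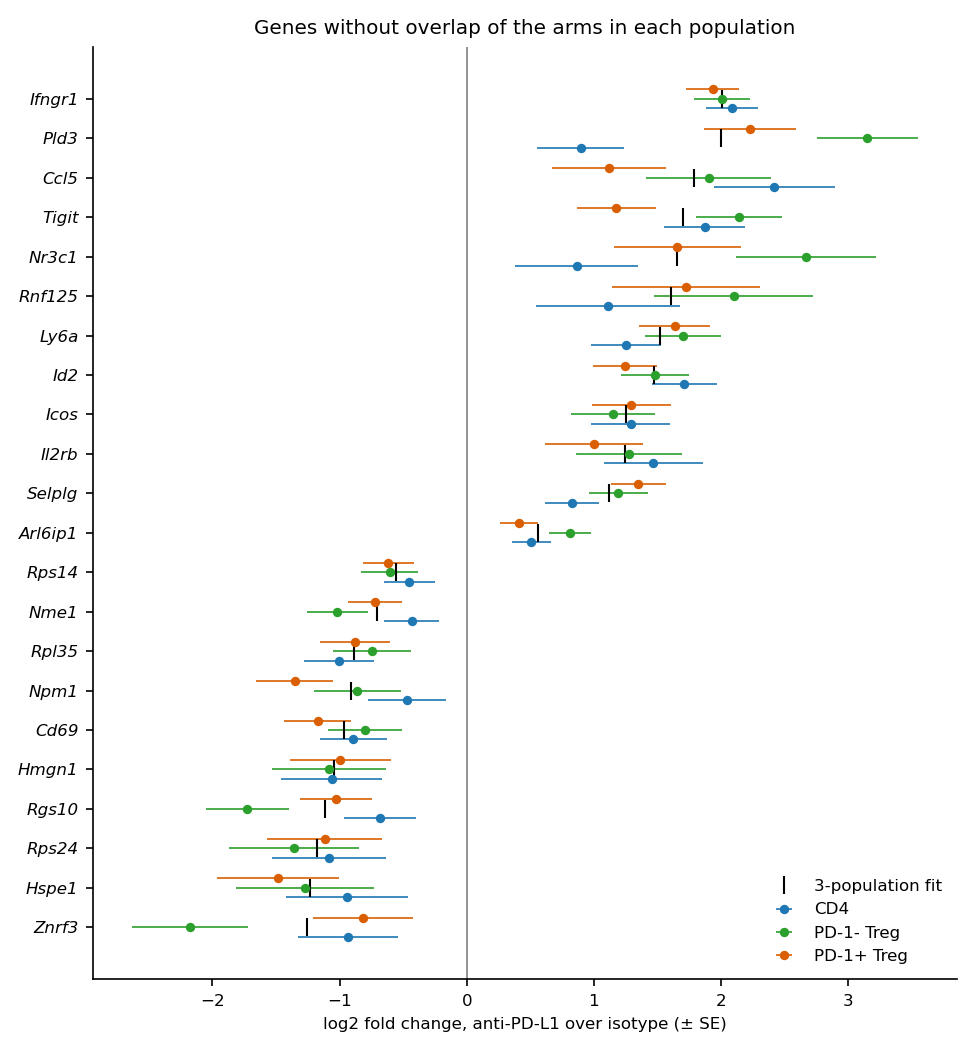
Log2 fold change of anti-PD-L1 over isotype, ± SE, in CD4 T cells (blue), PD-1- Tregs (green) and PD-1+ Tregs (orange) for 22 of the 24 genes with the smallest p whose arms did not overlap in any population; black ticks are the 3-population fit. Ifngr1 has values of 1.93 to 2.09 in the 3 populations, while Pld3 runs from 0.90 to 3.15.

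Effector Treg genes were higher on balance, with a median of 1.34 for CD4 T cells, 1.05 for PD-1- Tregs and 0.94 for PD-1+ Tregs. Of 18 regulators and receptors of effector Tregs, 16 were higher in the 3-population fit, and 12 were higher in all 3 populations and 2 lower in all 3. Id2 and Icos passed, and 10 of the higher members and 1 lower member had an unadjusted p under 0.05. Over all genes tested, 2.41% were higher and 3.31% lower at that p. Without overlap in any population, 0.625% were higher and 0.878% lower, and in all 3 populations 12.3% and 13.1%. Cxcr3, a chemokine receptor of type 1 effector cells, Klrg1, a receptor of terminal effector cells, and the calcium-binding protein S100a4 were higher without overlap in any population. Cxcr3 stood at 177 and 194 CPM in isotype and 537, 769 and 777 in treated CD4 T cells, at 0.0931 and 6.61 against 323 and 223 in PD-1- Tregs, and at 109.5 and 132 against 525, 379.9 and 321 in PD-1+ Tregs. Cxcr3 libraries of the treated arms were above every isotype library of their population, by 2.80 ± 0.77 in the fit (edgeR adjusted p = 0.432). Klrg1 (3.07 ± 1.05, 0.625) and S100a4 (1.02 ± 0.39, 0.716) were not past the threshold. Cd83, an activation marker, was lower without overlap in any population (-0.96 ± 0.27, edgeR adjusted p = 0.44).

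Suppressive molecules of Tregs were higher in 11 of 13 cases (median 0.99), 10 of them in all 3 populations and 0 lower in all 3. Tigit passed and 6 members, all higher, had an unadjusted p under 0.05 (2.41% of all genes tested). In 4 the treated libraries were higher without overlap in any population (0.625% of all genes tested). Il10, a suppressive cytokine, stood at 4.46 and 4.78 CPM in isotype and 26.5, 5.62 and 38.4 in treated CD4 T cells, at 0 and 2.81 against 91.5 and 33.7 in PD-1- Tregs, and at 18.5 and 15.1 against 118, 32.4 and 84.6 in PD-1+ Tregs. The lowest treated CD4 library was close above the isotype ones, while Tregs differed widely (3.07 ± 1.05 in the fit, edgeR adjusted p = 0.625). Fgl2 stood at 121 and 123 CPM in isotype and 384, 383 and 409.6 in treated CD4 T cells, at 0 and 152 against 407 and 224 in PD-1- Tregs, and at 258 and 275 against 947, 597 and 1003 in PD-1+ Tregs. Fgl2, a secreted suppressive protein, had no overlap in any population (1.79 ± 0.73, edgeR adjusted p = 0.751). The cytotoxic protease Gzmb did not overlap either: in PD-1- Tregs it had 0 counts in both isotype libraries and stood at 209 and 272 CPM under treatment, at least 873-fold higher against a floor of 3 counts per library. In CD4 T cells it stood at 6.51 and 0 CPM against 54.0, 40.6 and 93.8 and in PD-1+ Tregs at 38.6 and 28.3 against 100.5, 174 and 42.5 (edgeR adjusted p = 0.655 across populations).

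Markers that define Tregs were also higher in treated CD4 T cells and PD-1+ Tregs. The sum of the Treg markers Foxp3, Il2ra, Ikzf2 and Ctla4 was 182 to 205 CPM in isotype and 414 to 641 in treated CD4 T cells, 1727 to 2058 against 1315 to 1874 in PD-1- Tregs, and 1104 to 1191 against 1379 to 1817 in PD-1+ Tregs. All 4 markers were higher in the 3-population fit and 2 of 4 in all 3 populations, and none of the 4 was at 0 in any library. Foxp3 stood at 16.3 and 20.8 CPM in isotype and 36.6, 27.9 and 55.0 in treated CD4 T cells. It stood at 114 and 186 against 194 and 198 in PD-1- Tregs, and at 15.9 and 94.7 against 31.1, 156 and 45.7 in PD-1+ Tregs. Some PD-1+ Treg libraries were thus no higher in Foxp3 than the highest CD4 library. In the permutation test within populations, the sum gave an exact two-sided p of 0.0633 (0.38 adjusted over 12 measures of whole libraries). Their part in the effector and suppressive genes was not tested. Of 14 Treg identity genes, 10 were higher (median 0.44; 1.18 for CD4 T cells, 0.04 for PD-1- Tregs and 0.13 for PD-1+ Tregs), 0 passed and 5 had an unadjusted p under 0.05. This median was below 0 without CD4 T cells and in 2 limma-voom fits (lowest -0.09).

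Resting and central T cell genes were lower: 14 of 15 had a negative difference (median -0.84), 8 of them in all 3 populations, and 1 was higher in all 3. None passed, and 6 lower members and 1 higher had an unadjusted p under 0.05 (3.31% and 2.41% of all genes tested). In 4 the treated libraries were lower without overlap in any population (0.878% of all genes tested). Ccr7, the receptor that guides T cells into lymph nodes, the transcription factor Foxp1 and the growth-factor binding protein Igfbp4 were among those without overlap in any population. Ccr7 stood at 827 and 927 CPM in isotype and 524, 247 and 186 in treated CD4 T cells, at 331 and 610.3 against 283 and 175 in PD-1- Tregs, and at 284 and 315 against 34.9, 212 and 173 in PD-1+ Tregs. Treated Ccr7 libraries were below all isotype libraries of their population (-1.21 ± 0.34, edgeR adjusted p = 0.434). Foxp1 (-0.86 ± 0.28, 0.565) also lay below in every population. Igfbp4 was lower in all 3 but by different amounts (edgeR adjusted p of the difference between populations 0.0178): it stood at 239.97 and 236 CPM in isotype and 148, 64.6 and 63.8 in treated CD4 T cells, at 108 and 98.4 against 72.9 and 44.8 in PD-1- Tregs, and at 11.3 and 16.2 against 0.0858, 0 and 0.0974 in PD-1+ Tregs.

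Type 1 and cytotoxic effector genes were higher in 16 of 20 cases (median 1.53), with 9 higher in all 3 populations and 0 lower in all 3. Ccl5 passed, and 6 higher members and 1 lower had an unadjusted p under 0.05 (2.41% and 3.31% of all genes tested). Ccl5, Cxcr3 and Gzmb were higher without overlap in any population (0.625% of all genes tested). Of 18 adhesion and chemokine receptors, 15 were higher (median 0.73), 8 of them in all 3, and Selplg passed. Inhibitory receptors were higher in 7 of 11 (median 0.46; 4 higher and 1 lower in all 3), with Tigit past the threshold and Tigit and Pdcd1 without overlap. Receptors of the CD28 and TNF receptor families were higher in 7 of 10 (median 0.71; 5 higher and 0 lower in all 3), with Icos past the threshold. IL-2 receptor and STAT5 genes were higher in 10 of 12 (median 0.55; 3 higher and 1 lower in all 3) and none passed (4 at an unadjusted p under 0.05). CD8 T and NK cell markers, which share Gzma and Eomes with the type 1 list, summed to 39.9 to 41.1 CPM in isotype and 47.6 to 81.9 in treated CD4 T cells, to 1.58 and 40.6 against 0 and 35.2 in PD-1- Tregs, and to 26.3 and 52.0 against 63.5 to 95.9 in PD-1+ Tregs. Of these markers, Klrk1 was at 0 in 3 of 14 libraries, Cd8b1 in 6, Gzma and Eomes in 8, Cd8a and Klrb1c in 9, and Ncr1, Klrc2 and Klra8 in 10 to 13. Cd8b1, Klrk1, Gzma and Eomes had counts in every CD4 library. The part of such cells in the type 1 list was not tested.

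Glycolysis genes were higher in 17 of 18 cases (median 0.68), 13 of them in all 3 populations and 0 lower in all 3, with 12 at an unadjusted p under 0.05 and 0 past the threshold. Over all genes tested, 2.41% were higher at that unadjusted p. The glycolytic enzymes Tpi1, Aldoa, Gpi1 and Pgk1 and the glucose transporter Slc2a1 did not overlap in any population, where 0.625% of all genes tested were higher without overlap. Slc2a1 stood at only 0 and 7.15 CPM in the isotype PD-1- libraries. Tpi1 stood at 169.9 and 157 CPM in isotype and 348, 245 and 364 in treated CD4 T cells, at 133 and 82.7 against 295 and 221 in PD-1- Tregs, and at 312 and 243 against 375, 389 and 365 in PD-1+ Tregs. Tpi1, triosephosphate isomerase, was higher in each treated library (0.86 ± 0.18, edgeR adjusted p = 0.198). Aldoa differed by 0.77 ± 0.20 (0.353), Gpi1 by 0.60 ± 0.16 (0.353), Pgk1 by 0.63 ± 0.20 (0.565) and Pkm, pyruvate kinase, whose arms overlapped, by 0.84 ± 0.21 (0.353; edgeR adjusted p). The median stayed between 0.57 and 0.80 in 34 alternatives. Oxidative phosphorylation genes were lower in 15 of 20 cases (median -0.20), with 0 past the threshold and 0 without overlap in any population. In all 3 populations 7 were lower and 0 higher. These are 35% of the list, against 25.3% of all genes tested and 31.7% of those with at least 10 CPM in an arm of each population. At an unadjusted p under 0.05, 4 members were lower, as were 3.31% of all genes tested. Uqcrq, a subunit of complex III, was the member with the smallest p (-0.64 ± 0.18, edgeR adjusted p = 0.438).

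Proliferation genes had no member near the threshold. Of 20 mitosis genes, 12 were higher and 8 lower (median 0.08, negative in 9 of 34 alternatives), and of 20 DNA replication genes 17 were lower (median -0.30). In all 3 populations 5 mitosis genes and 7 replication genes were lower, and 1 of each list was higher. Those of 1 direction were 30% and 40% of the lists, against 25.3% of all genes tested. The replication gene Rfc4 was lower without overlap in any population (-1.39 ± 0.81), as were 0.878% of all genes tested. Neither list had a member past the threshold or at an unadjusted p under 0.05. Sterol and fatty acid synthesis genes split 9 and 9 (median -0.02), and Cyp51 was higher without overlap in any population (1.13 ± 0.83). Of 16 Bcl2-family and death genes, 9 were higher (median 0.24; 4 higher and 1 lower in all 3), and Bcl2 itself differed by -1.68 ± 0.58 (edgeR adjusted p = 0.633). Of 13 T cell receptor and proximal signalling genes, 8 were higher (median 0.18, with 3 higher and 2 lower in all 3). Cd3e was higher without overlap in any population (0.53 ± 0.13, edgeR adjusted p = 0.311), as were 0.625% of all genes tested. Of 9 follicular helper genes, 6 were lower in the fit (median -0.20), but 8 were mixed across populations, with medians of -1.16 for PD-1+ Tregs, 0.56 for PD-1- Tregs and 0.07 for CD4 T cells, and the median was 0.29 without PD-1+ Tregs. Dissociation and stress genes were lower in 11 of 16 (median -0.16; 2 higher and 3 lower in all 3).

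Without the 3 libraries with Y-linked counts, the median was 0.91 for effector Treg genes, 1.56 for type 1 genes, 0.76 for glycolysis, -0.58 for resting genes and -0.62 for ribosomal protein genes, against -0.09 over all genes tested. The median of suppressive molecules was then 0.55 in place of 0.99 (12 of 13 higher). That of interferon-gamma-induced genes was 0.17 in place of 0.38 (16 of 21 higher), that of type I interferon-induced genes 0.01 in place of 0.17, and that of Bcl2-family and death genes 0.15 in place of 0.24.

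**Figure D3:**
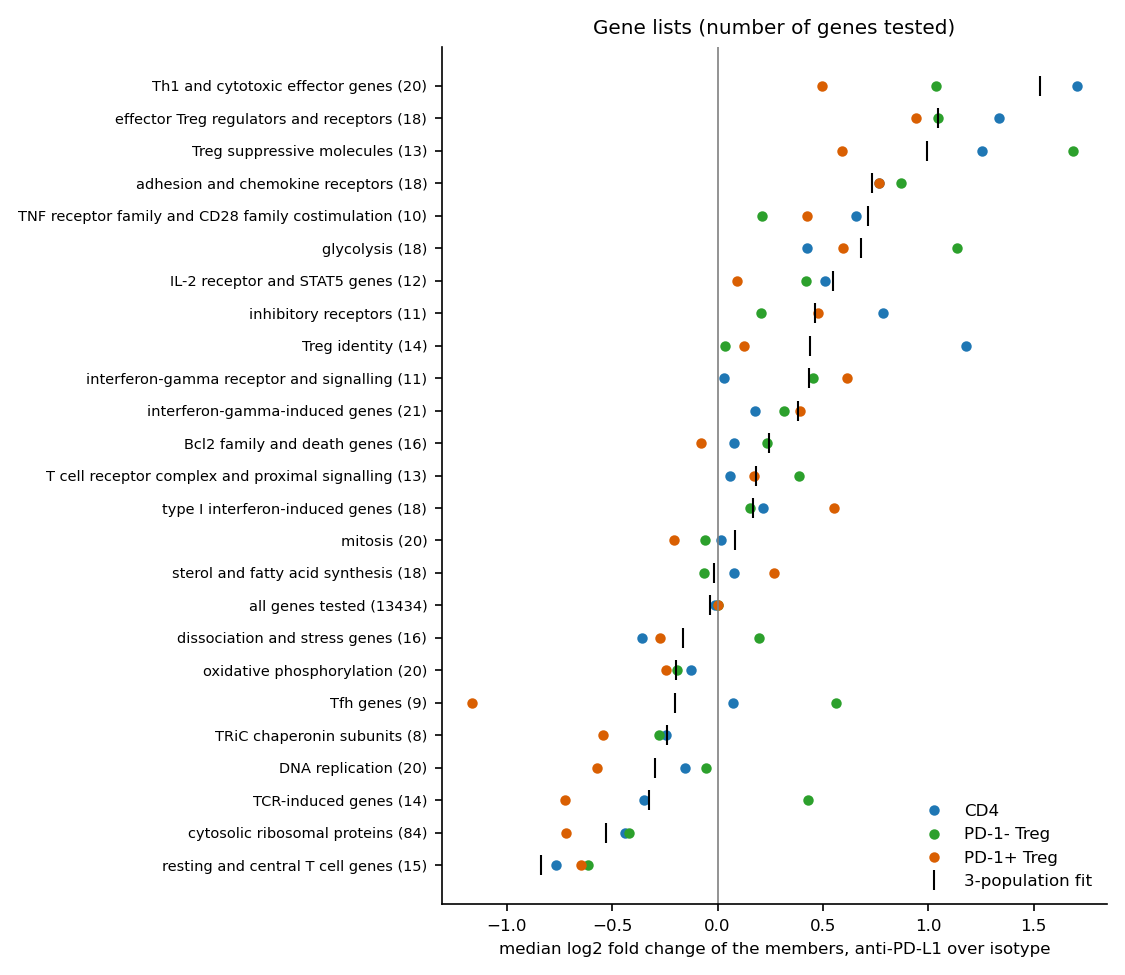
Median log2 fold change of the members of each gene list, anti-PD-L1 over isotype, in the 3 populations (coloured points) and in the 3-population fit (black tick), with the number of genes tested in brackets. Effector Treg genes lie at 1.05 and resting genes at -0.84 in the fit, with all 3 populations on the same side; the medians of all 13434 genes lie at or near 0.

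Cytosolic ribosomal protein genes, a list added after their values were seen and so given without a test, were lower in 83 of 84 cases (median -0.53; -0.44 for CD4 T cells, -0.42 for PD-1- Tregs and -0.72 for PD-1+ Tregs). In all 3 populations 72 were lower and 0 higher, against 13.1% and 12.3% of all genes tested. In CD4 T cells alone, 83 of the 84 were lower, where 48.9% of all genes were higher. None was past the threshold (smallest edgeR adjusted p 0.0719, Rpl35) and 45 had an unadjusted p under 0.05. Without overlap in any population were 29, which is 34.5% of the members and 24.6% of the 118 genes lower without overlap. Rpl35 stood at 494 and 688 CPM in isotype and 345, 255 and 285 in treated CD4 T cells, at 884 and 659.6 against 353 and 566 in PD-1- Tregs, and at 743 and 608 against 415, 273 and 415 in PD-1+ Tregs. Rpl35, a protein of the large subunit, was lower in each treated library than in each isotype library of its population. Summed over the 84 genes, CD4 T cells had 16917 and 20569 CPM in the isotype arm and 14877, 12211 and 13418 in the treated arm, PD-1- Tregs 22117 and 18982 against 14078 and 17117, and PD-1+ Tregs 20362 and 18424 against 12668, 11184 and 13299. On this scale the arms did not overlap in any population. As a share of all counts, before scaling between libraries, they overlapped in PD-1- Tregs (2.23% and 1.80% against 1.48% and 1.83%) and not in the others. The median was negative in 34 of 34 alternatives (-0.62 to -0.42).

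Short genes of other kinds were lower too. Among genes with at least 10 CPM in an arm of each population that encode no ribosomal protein, the median difference was -0.19 at 500 to 750 bases (152 genes) and 0.07 at 2500 to 4000 (2153 genes), where a gene's length is the one implied by its counts and RPKM values. In the same bins the ribosomal protein genes had a median of -0.58 (30 genes) and -0.57 (2 genes). Up to 500 bases the median was -0.35 for other genes (28 genes) and -0.61 for ribosomal protein genes (6 genes). In PD-1- Tregs alone, these shortest genes had medians of -0.38 and -0.35. The part of gene length in the ribosomal difference was not tested. Many of these genes have processed pseudogene copies, so their reads are uncertain.

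**Figure D4:**
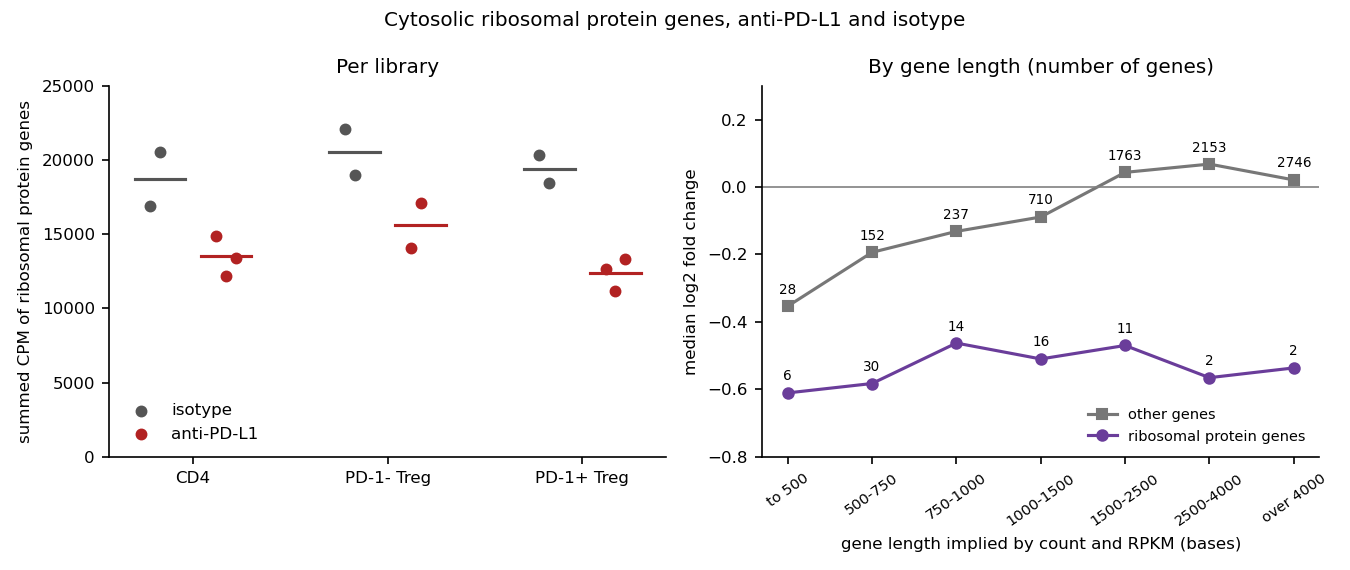
Left, summed CPM of the 84 cytosolic ribosomal protein genes in each library (grey isotype, red anti-PD-L1, lines the mean of an arm), from 11184 to 22117. Right, median log2 fold change of ribosomal protein genes and of other genes by implied length in bases, with the number of genes at each point.

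Markers of other cells differed between the arms in some populations. B cell markers summed to 296 to 307 CPM in isotype and 80.0 to 144 in treated CD4 T cells, and to 392 to 620 against 65.6 to 116 in PD-1+ Tregs, while PD-1- Tregs had 96.3 to 102 against 42.1 to 534 (9 of 10 markers lower in the fit, median -1.61, but 1.22 for PD-1- Tregs alone). Macrophage and monocyte markers were lower in 8 of 13 (median -0.20, and -0.61 without the 3 libraries with Y-linked counts), with sums of 3945 to 4597 against 2650 to 7036 CPM in CD4 T cells, 335 to 981 against 417 to 724 in PD-1- Tregs and 5193 to 7776 against 3968 to 5037 in PD-1+ Tregs. Dendritic cell and MHC class II markers were all 10 higher in the fit (median 0.43), yet 9 were mixed across populations. Their sums were 14933 to 20468 CPM in isotype and 18895 to 28776 in treated CD4 T cells, 19854 to 34515 against 27476 to 49669 in PD-1+ Tregs, and 14366 to 15529 against 8879 to 10962 in PD-1- Tregs, where the treated libraries were lower without overlap. PD-1- libraries had the fewest genes detected, 8027 to 8801, against 12119 to 14535 in CD4 and 9662 to 11312 in PD-1+ libraries. Of 12 measures of whole libraries, none passed after adjustment (smallest exact permutation p 0.0483, for genes detected, 0.38 adjusted); their number was 0.943-fold under treatment. Among the macrophage and monocyte markers, C1qa and Fcgr1 were at 0 in all 4 PD-1- libraries, and the other members with zeros in 1 to 3 of them. Cd68, C1qb, Lyz2, Apoe and Cd14 had counts in every library. The part of these cells in the 9 genes was not tested.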

How the data were processed

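Bulk Smart-seq2 RNA was measured in 14 libraries of 6 groups, set by the labels. The authors deposited raw counts per gene for 25124 genes and, separately, RPKM values of the same libraries (reads scaled by gene length and depth). Build mm10, HISAT2 2.0.4, HOMER 3.12, SAMtools and DESeq2 were used, per the submitters' processing notes. With counting settings and strand not given in the sources used here, reads of antisense or overlapping genes cannot be told apart. There were 0 columns of no sample. Replicates are called biological in the labels.

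The counts were fitted with edgeR 4.0.16 (TMM scaling, filterByExpr with a minimum count of 10, robust quasi-likelihood test), with population and treatment as terms, on 13434 genes. A fit of 6 groups gave the values within populations and the test of the difference between them. Adjusted p-values are Benjamini-Hochberg values over all genes tested, with a threshold of 0.05, and errors of log2 fold changes are SEs. The procedure was run on simulated counts with known changes. These were drawn as independent libraries with less spread than the data, whose common coefficient of variation between libraries was 1.331 in the fit. The simulation therefore checks that the steps run as intended and cannot give the error rate in these data. Exact permutation tests (SciPy 1.17.1) used log2(CPM + 1). The IRF core replaced a longer form of that motif after the promoters were seen.

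Members and gene lists were chosen with earlier results of these data known. The genes named are those of the sort and treatment; those past the threshold with the same direction in all 3 populations and at least 10 CPM in the higher arm of each; of each list, the members that passed, or up to 3 with the smallest p where none did; up to 6 genes with the smallest p of the difference between populations; and up to 12 each way without overlap between arms in any population. Other list members named, such as Cxcr3, Klrg1, S100a4, Cd83, Il10, Fgl2, Gzmb, Igfbp4, Gpi1, Pgk1, Slc2a1, Bcl2 and Cd3e, were chosen after their values were seen. Folds against an arm at 0 use a floor of 3 counts per library, and floors cover counting error only.

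Alternatives were DESeq2 1.42.0 with its size factors, limma 3.58.1 (voom, quality weights, and the RPKM values as log2 with pseudocounts of 1 and 0.1), other count filters, the mean of the 3 contrasts, replicate blocks, and leaving out each library, each population, the libraries with Y-linked counts or, added after the data were seen, each numbered set. Replicate numbers did not pair the arms. Results for a few genes and 1 motif are not reported here.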

Additional observations from a re-analysis of the deposited data

Results flagged for a closer look

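The treatment effect differed between the 3 populations for 100 genes, and 8 of the genes named here are among them. In 7 of these 8, 1 arm of PD-1- Tregs had 0 counts in both libraries. PD-1- libraries had 8027 to 8801 genes detected, against 9662 to 14535 in the other libraries, and the part of this in the values at 0 was not tested. Phyh, a peroxisomal enzyme of branched fatty acid breakdown (edgeR adjusted p of the difference 0.00223), was at 0 under isotype and at 176 and 147 CPM under treatment in PD-1- Tregs, at least 586-fold higher. Spsb3 (0.00461) was at 0 against 167 and 119 CPM, Galm, a sugar mutarotase (0.00853), at 0 against 221 and 89.3, and Rspry1 (0.00853) at 0 against 48.3 and 57.5, at least 518-fold, 564-fold and 192-fold higher. Spsb3 was higher without overlap in the other populations too, by less. It stood at 42.4 to 57.5 CPM against 76.0 to 84.6 in CD4 T cells, and at 27.0 to 32.9 against 56.2 to 77.8 in PD-1+ Tregs. In the opposite direction, Armc1 (edgeR adjusted p = 0.00306) stood at 103 and 189 CPM under isotype and at 0 in both treated libraries, at least 615-fold lower. Mmadhc, a protein of vitamin B12 handling (0.00583), stood at 52.6 and 125.6 CPM against 0, and Pdcd1lg2, the second PD-1 ligand (0.0353), at 23.7 and 56.7 against 0. These are at least 376-fold and 169.5-fold lower. Of 21 alternatives, 2 ended the call for Rspry1 and 1 did so for each of Phyh, Armc1, Spsb3, Mmadhc and Galm.

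The eighth gene was Igfbp4 (edgeR adjusted p of the difference 0.0178), lower in all 3 populations. In PD-1+ Tregs it had 338 counts over the isotype libraries and 2 over the treated ones, so the pooled treated level was 0.00417 times the isotype level, with a counting interval of 0.000503 to 0.0152. Groups of 2 or 3 libraries are too small for a test of single outlying libraries.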

How the results depend on the processing

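Of 2649 values of 78 named genes under the alternatives, 2421 kept direction and side of the threshold, 103 lost the call, 114 gained one and 11 reversed. Genes higher numbered 8, against 149 by DESeq2, 158 with quality weights, 97 for the mean of the 3 contrasts, 5 with either replicate block (which ended the calls of Icos, Pld3, Ccl5 and Cd69), 1, 14 and 2 without CD4 T cells, PD-1- and PD-1+ Tregs, 5 and 4 without treated sets 1 and 2, 1 without either isotype set, and 5 to 9 without 1 library. Genes lower numbered 1, against 189 by DESeq2, 139 with quality weights, 4 by voom, 6 by voom with a replicate block of treatment and number, 3 with no filter or at least 10 CPM, 68 for the mean of contrasts, 3 and 4 on log2(RPKM + 1) and log2(RPKM + 0.1), and 0 to 1 without 1 library. It was 0 with either replicate block by edgeR (687 and 598 genes of either direction at an unadjusted p under 0.05), without CD4 T cells (600), PD-1+ Tregs (429) or the libraries with Y-linked counts (621), and without any other numbered set (653, 515, 514 and 580.0). The share of calls that were higher was 88.9%, and 44.1% by DESeq2. The difference between populations was called for 100 genes, against 1035 by DESeq2, 390 by voom, 2 with quality weights, 7 with the block by bracket number and 19 to 534 without 1 library. Genes of 1 direction in all 3 populations ran from 3395 to 3932. Il2ra reversed by voom (-0.31), voom with the replicate block (-0.28) and without CD4 T cells (-0.18). Pdcd1lg2 reversed by voom (0.061), with quality weights (0.82), without treated PD-1- replicate 1 (0.60) or 2 (0.62; -0.97 to 0.62 without 1 library), PD-1- Tregs (1.27), the libraries with Y-linked counts (0.55) or treated set 2 (0.57), and Slamf6 without PD-1+ Tregs (0.29). The cause was not tested. Same-numbered libraries of the 2 arms correlated at 0.00633 to 0.0740 in 5 pairs, so the numbers were not taken as pairs. An arm left with 1 library is assumed to vary like the others. Arms of 2 libraries limit the values within PD-1- Tregs, where genes such as Gzmb and Phyh were at 0 in an entire arm.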

Other observations

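TRiC chaperonin subunits, which fold actin and tubulin, form a list added after their values were seen and given without a test. Of 8 subunits, 7 were lower under anti-PD-L1, with a median of -0.24 for CD4 T cells, -0.28 for PD-1- Tregs and -0.54 for PD-1+ Tregs. Cct7 (-0.88 ± 0.22 log2, edgeR adjusted p = 0.311) and Cct8 (-0.47 ± 0.13, 0.41) did not overlap between the arms in any population. Markers of mesothelial tumour cells and stroma were lower in 13 of 14 cases (median -0.65), and in 14 of 14 without the 3 libraries with Y-linked counts (median -1.49), but 12 of 14 were mixed across populations. Isotype against treated, their mean sum was 1537 against 791 CPM for CD4 T cells, 1249.7 against 834 for PD-1- Tregs and 877 against 1088 for PD-1+ Tregs. Of the 14, 8 were at 0 in 4 to 11 of the 14 libraries.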
